A study of Mus musculus with 15 samples.

Results

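The GIMAP genes are a family of 8 genes in the mouse annotation (Gimap1, Gimap3, Gimap4, Gimap5, Gimap6, Gimap7, Gimap8 and Gimap9), chosen here by their symbols from the 55421 genes counted in CD4+ T cells. All 8 had reads in each of the 15 samples and passed the filter on low counts in each comparison. The cells came from C57BL/6 mice and were naive CD4+ T cells when they were transferred into Rag2-/- hosts, which make no T or B cells of their own, where they cause T cell transfer colitis. They were sorted again from spleen and mesenteric lymph nodes (mLN) 6 weeks later. WT cells carried floxed alleles of Prkaa1, which encodes AMPKα1, the catalytic subunit of the energy sensor AMPK (labelled WT (PRKAA1fl/fl)). KO cells carried the same floxed alleles and the Cre recombinase under Cd4 control (labelled KO (CD4-Cre PRKAA1fl/fl)), so that the deletion starts in developing thymocytes and is not confined to the transfer. Both genotypes were therefore floxed, both were transferred, and both were read at a single time in the same kind of lymphopenic host. The hosts differed in disease. The study reports that hosts of WT cells lost weight, whereas hosts of KO cells kept theirs and had mild inflammation with fewer T cells. The genotype of the cells and the disease of the host therefore cannot be told apart in KO against WT values. There were 4 WT spleen, 4 KO spleen, 3 WT mLN (replicates 1, 2 and 4) and 4 KO mLN samples. The study's text gives mice as the replicates of these data, within a single experiment, and the labels tie no sample number to a mouse, so p-values measure the spread within that experiment.

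GIMAP proteins (GTPases of the immunity-associated protein family) bind guanine nucleotides through a domain of the AIG1 type and sit on intracellular membranes, where they can assemble on one another. They are made mainly in lymphocytes, and several are needed for T cells to survive outside the thymus. Loss of Gimap5 causes lymphopenia in rats and mice, and proteins of the BCL-2 family and of autophagy have been connected with family members. The genes lie side by side in a cluster, from which several members are read in mature T cells at high levels.

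On GRCm38 the cluster spans chr6:48647234-48770851 in the order Gimap8, Gimap9, Gimap4, Gimap6, Gimap7, Gimap1, Gimap5 and Gimap3. Gimap6 and Gimap3 lie on the minus strand and the other 6 on the plus strand. The 250 bases before the start of 4 members are printed, because their counts moved in opposite directions between the organs (Gimap8 against Gimap9) or are among the highest of the family (Gimap4 and Gimap6). They are RefSeq sequences on GRCm38.p6, written on the strand of the gene, with capitals for any of 8 searched motifs on either strand.
Gimap8, chr6:48646984-48647233, plus strand: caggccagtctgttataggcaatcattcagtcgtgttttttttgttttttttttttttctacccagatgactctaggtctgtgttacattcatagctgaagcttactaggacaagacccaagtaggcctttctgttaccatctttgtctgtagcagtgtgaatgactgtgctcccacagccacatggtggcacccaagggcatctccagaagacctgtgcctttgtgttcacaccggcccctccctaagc
Gimap9, chr6:48675885-48676134, plus strand: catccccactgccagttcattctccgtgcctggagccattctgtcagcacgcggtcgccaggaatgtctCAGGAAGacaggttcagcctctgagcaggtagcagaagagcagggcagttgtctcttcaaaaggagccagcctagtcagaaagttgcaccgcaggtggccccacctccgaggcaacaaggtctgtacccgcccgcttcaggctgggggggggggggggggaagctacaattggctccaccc
Gimap4, chr6:48684328-48684577, plus strand: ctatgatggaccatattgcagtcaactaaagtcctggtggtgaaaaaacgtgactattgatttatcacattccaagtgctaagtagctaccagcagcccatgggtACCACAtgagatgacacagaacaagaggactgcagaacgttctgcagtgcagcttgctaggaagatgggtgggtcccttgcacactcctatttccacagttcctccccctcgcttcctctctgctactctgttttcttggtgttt
Gimap6, chr6:48708245-48708494, minus strand: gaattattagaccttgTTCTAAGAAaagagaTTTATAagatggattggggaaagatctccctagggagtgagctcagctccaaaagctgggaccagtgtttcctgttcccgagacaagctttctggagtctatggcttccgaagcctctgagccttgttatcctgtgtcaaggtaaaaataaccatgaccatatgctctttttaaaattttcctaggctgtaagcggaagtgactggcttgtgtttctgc

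All 8 members had such a window, and Gimap8 had 2, since RefSeq gives it 2 starts. The ETS core CAGGAAG lay in the windows of Gimap9, Gimap5 and Gimap3 and in 10.8% of 32536 windows of all genes. The RUNX core TGTGGT lay in those of Gimap4, Gimap7 and Gimap1 (14.0% of all windows). ETS and RUNX proteins are transcription factors that act at many T cell genes. The window of Gimap6 held TATAAA (12.3%) and the spaced motif TTCNNNGAA bound by STAT proteins (7.04%), which lay also before the second start of Gimap8. The FOXO motif GTAAACA (3.17%) was found before Gimap3 alone. None of the 9 windows held the letters searched for KLF proteins (CCACACCC, 3.2%), for GATA proteins (AGATAA, 9.97%) or the spaced motif of IRF proteins (2.98%). The motifs do not overlap one another in the letters printed, and the matches describe the sequence only.

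Each sample had 9363940 to 11283439 reads on genes, and between 58.4% and 63.4% of uniquely aligned reads lay on no gene. The deposited counts do not give the strand that was counted. Markers of T cells, among them Cd3e and Cd4, summed to between 7272 and 9681 counts per 1000000 reads (CPM) in a sample, whereas the CD8 chain genes summed to between 1.57 and 28.4 CPM. Prkaa1 was read at 470 to 540 counts in WT and 194 to 243 in KO spleen, and at 503 to 616 in WT and 216 to 360 in KO mLN. Each KO sample lay below each WT sample of its organ (log2 fold change −1.33, adjusted p = 7.63e-05 in spleen and −0.95, adjusted p = 0.0372 in mLN, edgeR quasi-likelihood test). KO mLN samples held more Prkaa1 than KO spleen samples (28.0 against 20.1 CPM, log2 fold change 0.46, adjusted p = 0.0361, edgeR).

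The GIMAP genes were among the most abundant transcripts in these cells. By mean CPM over the 15 samples, scaled by the TMM method, Gimap4 ranked 29th, Gimap3 41st and Gimap6 60th of 39155 genes with a read. Gimap7 ranked 286th, Gimap1 298th, Gimap8 598th, Gimap9 918th and Gimap5 2015th. Together the 8 genes took 0.547% ± 0.0734 (SD, n = 4) of the reads on genes in WT spleen, and KO spleen gave 0.521% ± 0.0248 (SD, n = 4). The share was 0.643% ± 0.0467 (SD, n = 3) for WT mLN, with 0.630% ± 0.0551 (SD, n = 4) for KO mLN. The organs did not overlap in KO, where spleen ended at 0.550% and mLN began at 0.552%. In WT they overlapped through spleen replicate 3, whose share of 0.653% lay above those of 2 of the 3 mLN samples.

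Levels of different genes were compared per kilobase of exon. In WT spleen Gimap4, which has been connected with T cell death and cytokine secretion, stood highest at 853 ± 201 CPM per kb (SD, n = 4). It was followed by Gimap3, the closest relative of Gimap5 in the family, at 526 ± 62.3, and by Gimap6, a partner of the autophagy protein GABARAPL2, at 316 ± 35.2. Gimap7, whose product forms dimers that hydrolyse GTP, stood at 156 ± 48.9, Gimap1, which mature T and B cells need, at 134 ± 11.2, Gimap9 at 103 ± 12.6, Gimap8 at 84.2 ± 8.74 and Gimap5 at 28.4 ± 3.03 CPM per kb. The order was the same in KO spleen and WT mLN. In KO mLN Gimap9 (156 ± 19.0 CPM per kb) stood above Gimap1 (146 ± 3.92), but their samples overlapped. Neighbours in this order did not overlap from Gimap4 down to Gimap6 in each group, whereas Gimap7, Gimap1, Gimap9 and Gimap8 each overlapped the next in WT spleen, except that Gimap8 lay clear of Gimap5.

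The place of Gimap1 in this order is uncertain. Of its exon bases, 36.0% (1107) are covered on the opposite strand by the noncoding gene Gimap1os. With exon bases shared on either strand left out of its length, Gimap1 stood at 210 CPM per kb in WT spleen and 237 in WT mLN, above Gimap7 (162 and 209), but in KO mLN it stood below Gimap7 (228 against 241). A read-through gene, Gm28053, shares 81 exon bases with Gimap7, 198 with Gimap1 and 153 with Gimap5 on the same strand, where reads count for neither gene. Gimap3 and Gimap5 share 83 windows of 75 bases, which is 3.32% of those in Gimap3 and 1.97% of those in Gimap5, so nearly all reads of the pair can be told apart.

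**Figure D1:**
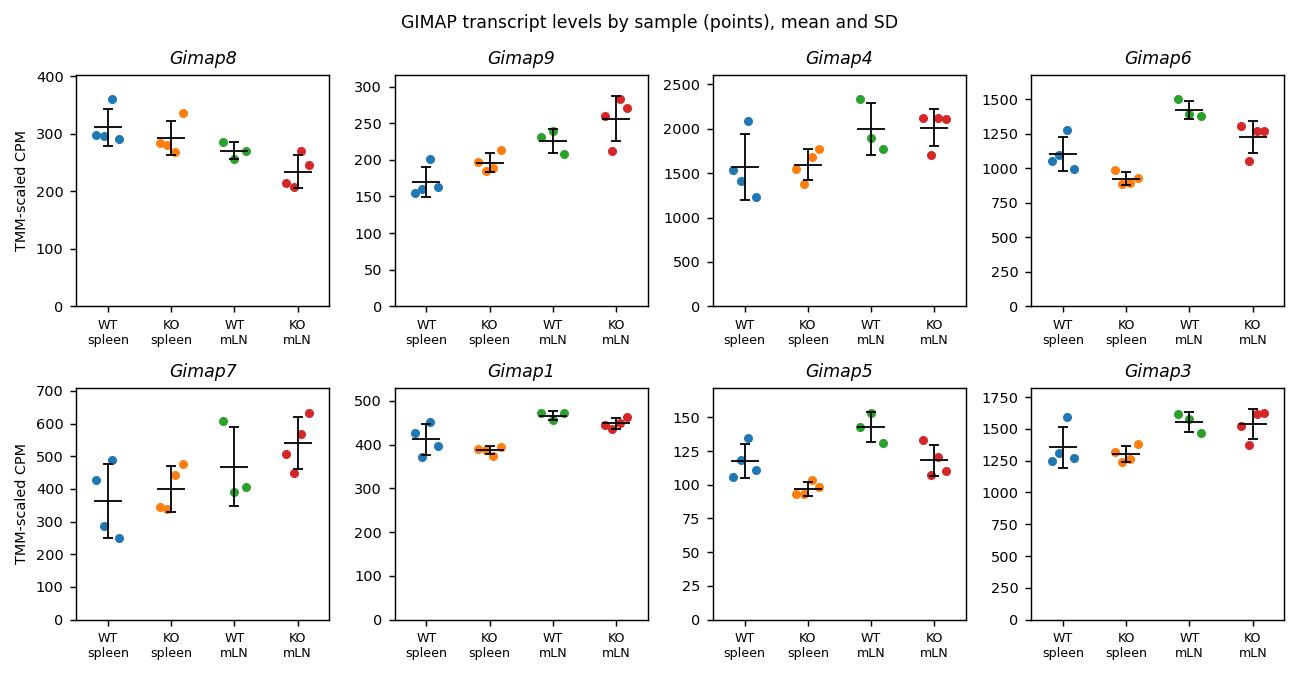
Level of each GIMAP gene (TMM-scaled CPM, axes from 0) in WT and KO samples of spleen and mLN. Each point is a sample, the long bar is the group mean and the error bar its SD (n = 4, or 3 for WT mLN). The means of Gimap8 are lower in mLN, whereas those of the other 7 are higher there, and the means of Gimap5 and Gimap6 are lower in KO than in WT.

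To ask whether GIMAP transcripts depended on AMPKα1, KO was compared with WT within each organ. None of the 8 genes passed the threshold in spleen (adjusted p from 0.107 to 0.949, edgeR) or in mLN (adjusted p from 0.244 to 0.972), where 1.3% (0.547% higher and 0.751% lower) and 0.641% (0.348% higher and 0.292% lower) of all genes tested did. At an unadjusted p under 0.05 there were 3 of 8 in spleen (Gimap5, Gimap6 and Gimap9) and 2 of 8 in mLN (Gimap5 and Gimap6), beside 20.5% and 15.7% of all genes tested. DESeq2 called 0 in both organs (2.27% and 1.67% of genes with a read). The median log2 fold change of the 8 genes was −0.08 in spleen and −0.04 in mLN, beside −0.0041 and −0.0038 over all genes tested.

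Gimap6 and Gimap5 had the largest negative values in both organs. Gimap6 stood at 1050, 1094, 1281 and 999 CPM in WT spleen replicates 1 to 4 and at 989, 887, 892 and 932 in KO spleen. In mLN it stood at 1500, 1395 and 1379 CPM in WT replicates 1, 2 and 4 and at 1306, 1057, 1274 and 1271 in KO. Each KO sample lay below each WT sample of its organ, as was the case for 6.13% of all genes tested in spleen and 7.37% in mLN. The reverse, all KO samples higher, held for none of the 8 genes and for 5.9% and 6.62% of all genes. The log2 fold change was −0.26 (SE 0.087, adjusted p = 0.137) in spleen and −0.22 (SE 0.083, adjusted p = 0.250) in mLN, with 95% intervals from −0.45 to −0.07 and from −0.40 to −0.03.

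Gimap5 was read at 106, 119, 135 and 111 CPM in WT spleen and at 93.0, 93.1, 104 and 98.4 in KO spleen. Its mLN values were 143, 153 and 131 CPM in WT and 133, 108, 121 and 111 in KO. The spleen groups did not overlap, but in mLN KO replicate 1 stood above WT replicate 4. The log2 fold change was −0.28 (SE 0.083, 95% interval −0.46 to −0.10, adjusted p = 0.107) in spleen and −0.27 (SE 0.10, −0.50 to −0.04, adjusted p = 0.244) in mLN.

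Gimap9, a member of less known function, stood at 155, 160, 201 and 164 CPM in WT spleen and at 197, 184, 188 and 213 in KO spleen. In mLN it stood at 231, 240 and 207 CPM in WT and 260, 212, 283 and 271 in KO. WT spleen replicate 3 reached into the KO range, and the others lay below it. The log2 fold change was 0.20 (SE 0.090, 95% interval 0.0030 to 0.40, adjusted p = 0.238) in spleen and 0.18 (SE 0.11, −0.06 to 0.42, adjusted p = 0.470) in mLN. Gimap8, the largest protein of the family with several GTPase domains, gave −0.09 on the log2 scale in spleen (adjusted p = 0.623) and −0.21 (SE 0.10, −0.44 to 0.02, adjusted p = 0.367) in mLN.

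For the other 4 genes the intervals reached to both sides of 0. Gimap4, Gimap3 and Gimap1 lay between −0.09 and 0.02 in spleen and between −0.06 and 0.01 in mLN. The bounds of their 95% intervals ran from −0.31 to 0.36 in spleen, both set by Gimap4, and from −0.22 to 0.24 in mLN. Gimap7 varied more among samples (250 to 489 CPM in WT spleen), and its interval was −0.32 to 0.59 in spleen and −0.14 to 0.55 in mLN. For each of the 8 genes the interval ended short of a 2-fold change in either direction in both organs.

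Some markers of other cells moved with the genotype too. The 4 NK cell markers summed to 49.8 to 74.9 CPM in WT and 95 to 109 in KO spleen, and to 45.2 to 59.0 in WT and 83.4 to 124 in KO mLN. Most of this sum was Eomes, a T-box factor that T cells can also make, which was the only NK cell marker called (36.2 to 68.2 CPM in WT and 78.3 to 103 in KO spleen, 30.7 to 46.2 in WT and 68.4 to 118 in KO mLN). The NK cell receptor gene Klrb1c had negative values in KO, at −1.02 on the log2 scale in spleen (adjusted p = 0.220) and −1.69 in mLN (adjusted p = 0.10), where it stood at 5.48 to 11.9 CPM in WT and 1.62 to 5.22 in KO. In mLN the CD8 chain genes summed to 7.33 to 11.5 CPM in WT and 19.6 to 28.4 in KO, with neither called. Only Cd8a separated the genotypes there (0.305 to 8.47 CPM in WT and 16.5 to 23.2 in KO). Cd8b1 overlapped (3.05 to 7.02 CPM in WT and 1.49 to 7.01 in KO). The B cell factor Pax5 rose in mLN from at most 0.203 CPM in WT to 1.68 to 4.43 in KO. Erythroid markers overlapped between the genotypes in spleen (81.5 to 1676 CPM in WT and 36.5 to 93.9 in KO), and none of the 5 tested was called. The part of these cells in the GIMAP values was not tested.

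The read-through and antisense genes of the cluster had negative values in KO against WT. Gm28053 had 95 to 163 counts in WT and 71 to 87 in KO spleen, and 144 to 187 in WT and 79 to 139 in KO mLN. Its groups did not overlap in either organ, but its log2 fold changes of −0.72 (adjusted p = 0.0773) and −0.71 (adjusted p = 0.181) did not pass the threshold. Gimap1os had log2 fold changes of −0.31 (adjusted p = 0.117) and −0.15 (adjusted p = 0.495). Without the strand of the counts, reads of Gimap1os and Gimap1 cannot be told apart where they overlap.

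**Figure D2:**
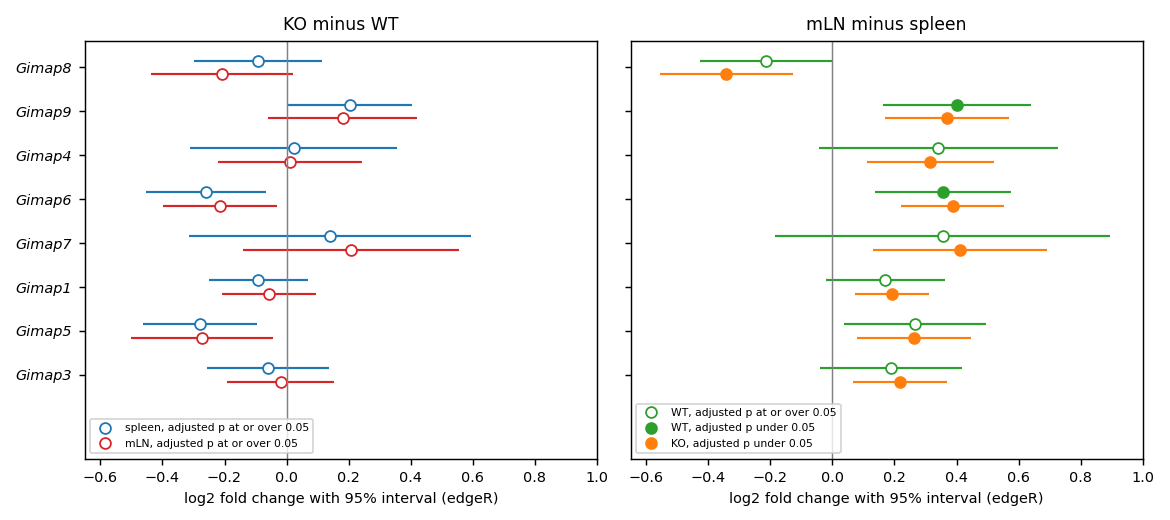
Log2 fold change of each GIMAP gene with its 95% interval from edgeR, for KO minus WT in spleen and mLN (left) and for mLN minus spleen in WT and KO cells (right). Filled points have an adjusted p under 0.05 in the fits without pairing. On the left all points are open, and on the right Gimap9 and Gimap6 are filled in WT and all 8 genes in KO, with Gimap8 alone below 0.

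To ask how GIMAP levels differed between the organs, mLN was compared with spleen within each genotype. In KO cells all 8 genes passed the threshold, 7 higher in mLN and Gimap8 lower, where 25.3% of all genes tested passed, 11.4% of them higher and 13.9% lower. In WT cells 2 of 8 passed, Gimap9 and Gimap6, both higher in mLN, where 20.5% of all genes tested passed (9.7% higher and 10.8% lower). These fits took no samples as paired. With the replicate number as a block 7 passed in WT (30% of all genes tested), as given below. The organs did not overlap for 4 genes in WT, 3 higher and 1 lower in mLN (31.9% of all genes tested, 16.1% higher and 15.8% lower), and for 3 genes in KO, all higher (28.8%, 14.2% higher and 14.5% lower). The median log2 fold change of the 8 genes was 0.30 in WT and 0.29 in KO, beside 2.74e-05 and 0.0073 over all genes tested. All the differences were under 2-fold.

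Gimap9 and Gimap6 rose in both genotypes. The Gimap9 samples given above did not overlap between the organs in WT, and in KO the lowest mLN sample (212 CPM) lay just below the highest spleen sample (213). Its mean in mLN was 1.33 times that in spleen in WT (log2 fold change 0.40, SE 0.11, adjusted p = 0.0267) and 1.31 times in KO (0.37, SE 0.091, adjusted p = 0.0122). The organs did not overlap for Gimap6 in either genotype, with ratios of 1.29 in WT (log2 fold change 0.36, SE 0.097, adjusted p = 0.0307) and 1.33 in KO (0.39, SE 0.076, adjusted p = 0.00352).

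Gimap4 stood at 1538, 1415, 2087 and 1228 CPM in WT spleen and 2330, 1892 and 1774 in WT mLN. In KO it stood at 1551, 1373, 1682 and 1776 CPM in spleen and 2120, 1705, 2117 and 2107 in mLN. WT spleen replicate 3 lay among the mLN samples, and KO mLN replicate 2 among the spleen samples. The log2 fold change was 0.34 in WT (SE 0.17, adjusted p = 0.192) and 0.32 in KO (SE 0.093, adjusted p = 0.0287).

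Relative to its mean, Gimap7 had the widest spread of the 8 genes in each group, with an SD of 14.7% to 31.3% of the mean. It stood at 428, 285, 489 and 250 CPM in WT spleen and 607, 391 and 405 in WT mLN, and at 346, 337, 442 and 477 in KO spleen and 506, 450, 569 and 633 in KO mLN. In both genotypes the highest spleen sample lay above the lowest mLN sample. The log2 fold change was 0.35 in WT (SE 0.24, adjusted p = 0.332) and 0.41 in KO (SE 0.13, adjusted p = 0.0356).

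The remaining genes of the rising group had smaller differences. Gimap1 stood between 373 and 452 CPM in WT spleen and between 456 and 473 in WT mLN, and between 375 and 395 in KO spleen and 435 and 464 in KO mLN, so that the organs did not overlap in either genotype (log2 fold change 0.17, adjusted p = 0.191 in WT and 0.19, SE 0.054, adjusted p = 0.0225 in KO). Gimap5 gave 0.27 in WT (adjusted p = 0.0947) and 0.26 in KO (adjusted p = 0.0399), where its mLN samples all lay above its spleen samples. Gimap3 stood at 1250 to 1593 CPM in WT spleen, 1469 to 1618 in WT mLN, 1242 to 1382 in KO spleen and 1373 to 1627 in KO mLN (0.19, adjusted p = 0.220 in WT and 0.22, adjusted p = 0.0378 in KO).

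Gimap8 went the other way. It stood at 298, 296, 360 and 291 CPM in WT spleen and 286, 256 and 269 in WT mLN, and at 285, 280, 269 and 337 in KO spleen and 214, 207, 270 and 245 in KO mLN. The organs did not overlap in WT, whereas in KO the highest mLN sample and the lowest spleen sample, both replicate 3, stood at 269.5 and 269.1 CPM. The log2 fold change was −0.21 in WT (SE 0.095, 95% interval −0.43 to 0.00080, adjusted p = 0.146) and −0.34 in KO (SE 0.098, −0.56 to −0.13, adjusted p = 0.0245).

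The replicate numbers paired the WT samples of the organs by the check described with the processing, and the fit with the number as a block called 7 genes in WT, all higher in mLN, where it called 30.0% of all genes tested (14.6% higher). The log2 fold changes in this fit were 0.54 for Gimap7 (adjusted p = 0.000582), 0.51 for Gimap4 (adjusted p = 0.000403), 0.49 for Gimap9 (adjusted p = 0.00142) and 0.43 for Gimap6 (adjusted p = 0.000914). Gimap5, Gimap3 and Gimap1 stood at 0.34, 0.28 and 0.22 (adjusted p = 0.00836, 0.00867 and 0.0308), and Gimap8 at −0.14 (adjusted p = 0.146). WT spleen replicate 3 has no partner in mLN and adds nothing to this fit.

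The number of calls in the fits without pairing depended on single libraries. In WT it was 0 without WT spleen replicate 1, 2 or 4 or WT mLN replicate 1 or 2, 1 without WT mLN replicate 4 and 5 without WT spleen replicate 3, which was the highest of its group for all 8 genes. In KO it was 2 without KO spleen replicate 1, 3 without KO spleen replicate 2 and 6 without KO spleen replicate 3 or 4. It was 4 without KO mLN replicate 1 or 3, 7 without KO mLN replicate 2 and 5 without KO mLN replicate 4. Gimap6 and Gimap9 were called in all 8 fits that left out a KO library. These fits called 12.7% to 19.5% of all genes tested in WT and 18.1% to 25.2% in KO.

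The difference between the genotypes in the change between organs was tested as an interaction over the 15 samples. It passed the threshold for none of the 8 genes (log2 values from −0.12 for Gimap8 to 0.06 for Gimap7, adjusted p = 0.9998, edgeR), with 0 at an unadjusted p under 0.05 (4.22% of all genes tested) and 0 by DESeq2. The 95% interval was −0.42 to 0.18 for Gimap8 and −0.22 to 0.30 for Gimap6. These values took no samples as paired. None of the 15438 genes tested passed (0.0%), so more calls in KO than in WT cells were not shown to be a difference between the genotypes. With the replicate number as a block Gimap4 stood at −0.18 (unadjusted p = 0.0471, adjusted p = 0.918, edgeR). It was the only member under 0.05 unadjusted in that fit, beside 833 of 15438 genes tested.

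**Figure D3:**
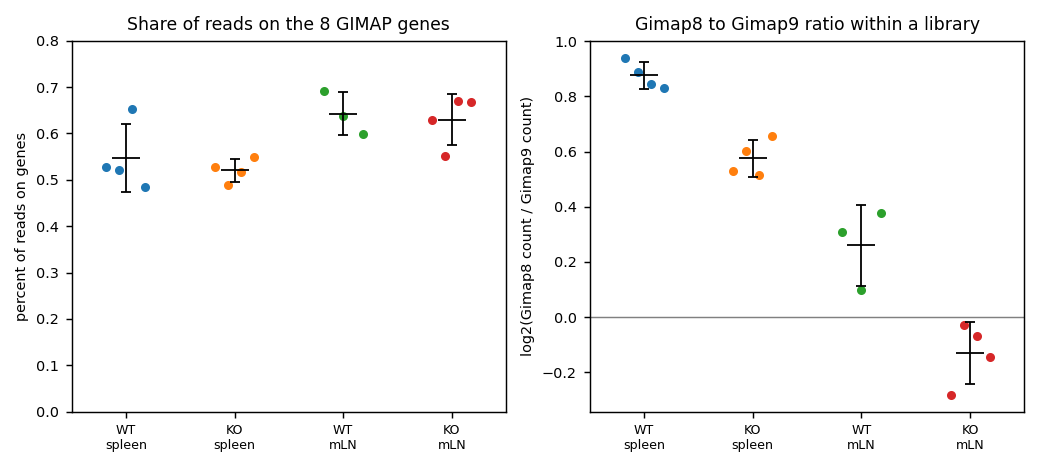
Share of the reads on genes that fell on the 8 GIMAP genes (left, in percent) and the log2 ratio of Gimap8 to Gimap9 counts within each library (right). Points are samples, and bars are group means with SD (n = 4, or 3 for WT mLN). The ratio falls from WT spleen through KO spleen and WT mLN to KO mLN with no overlap between the groups.

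Gimap8 and Gimap9, which lie next to each other, were also compared as a ratio of raw counts, which does not depend on the scaling of the library. This pair was chosen after its values were seen, and no test was made. The log2 ratio of Gimap8 to Gimap9 was 0.94, 0.89, 0.84 and 0.83 in WT spleen replicates 1 to 4 and 0.53, 0.60, 0.51 and 0.66 in KO spleen. In mLN it was 0.31, 0.10 and 0.38 in WT replicates 1, 2 and 4 and −0.28, −0.03, −0.07 and −0.14 in KO. The 4 groups did not overlap, and Gimap9 had more reads than Gimap8 only in the KO mLN samples. Against Gimap6 the ratio of Gimap8 separated the organs (−1.88 to −1.47 in spleen and −2.61 to −2.24 in mLN), but not the genotypes within them.

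Other measures moved with the organ as well. Neutrophil markers summed to 209 to 696 CPM in WT spleen and 59.8 to 98.7 in WT mLN, and to 151 to 598 in KO spleen and 17.4 to 68.3 in KO mLN, and the 4 of these 5 genes that were tested passed as lower in mLN in both genotypes. Macrophage and monocyte markers lay at 105 to 311 CPM in KO spleen and 61.4 to 72.3 in KO mLN (4 of 5 tested genes lower), while in WT they overlapped. T cell markers summed to 8121 to 8978 CPM in KO spleen and 9123 to 9681 in KO mLN, and to 7272 to 9426 and 8701 to 9318 in WT. Of the 9 T cell markers, 4 were called higher and 1 lower in KO mLN, and 2 were called higher in WT mLN. Other markers were higher in mLN. The CD8 chain genes summed to 2.58 to 4.97 CPM in WT spleen and 7.33 to 11.5 in WT mLN, and to 1.57 to 4.43 in KO spleen and 19.6 to 28.4 in KO mLN, where Cd8a was called (log2 fold change 4.43, adjusted p = 3.18e-05). In WT each chain alone overlapped between spleen and mLN (Cd8a at 0.0974 to 0.670 and 0.305 to 8.47 CPM, Cd8b1 at 1.91 to 4.87 and 3.05 to 7.02). In KO Cd8b1 overlapped too (1.40 to 2.80 and 1.49 to 7.01). The B cell markers averaged 3.17 CPM in WT spleen and 5.19 in WT mLN, and 3.21 in KO spleen and 6.56 in KO mLN, where Pax5 was called higher. Of the dendritic cell markers 2 were called higher and 1 lower in KO mLN. Pecam1, listed as an endothelial marker, was called higher there (90.3 to 116 CPM against 64.8 to 87.3 in KO spleen). The other endothelial markers, Cdh5, Kdr, Tek and Emcn, stood at 2.27 CPM or less in each KO sample. The mitochondrial share of gene reads was 0.975% to 1.43% in spleen and 0.758% to 0.951% in mLN. The part of other cells and of RNA quality in the result was not tested, and fewer cells of a type cannot be told apart from less RNA per cell in bulk samples. With each level divided by the T cell marker sum of its own library, 7 genes were higher and Gimap8 lower in mLN in both genotypes, with differences from −0.32 to 0.29 in WT and from −0.46 to 0.30 in KO on the log2 scale (median 0.20 and 0.17). For 6 of the 8 genes called in KO (Gimap9, Gimap4, Gimap6, Gimap1, Gimap5 and Gimap3) and for Gimap6 in WT the difference was then smaller by over 1.5 times, as for Gimap1 in KO, which went from 0.21 to 0.08. Gimap6 and Gimap1 in both genotypes and Gimap5 in KO then overlapped between the organs. Gimap8 lay lower in mLN without overlap in both genotypes. The marker sum itself was higher in mLN, by 0.13 in WT and 0.14 in KO on the log2 scale. Dividing by it lowers the difference of every gene by that amount, Gimap8 included. The share of all genes without overlap was not computed after this scaling.

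**Figure D4:**
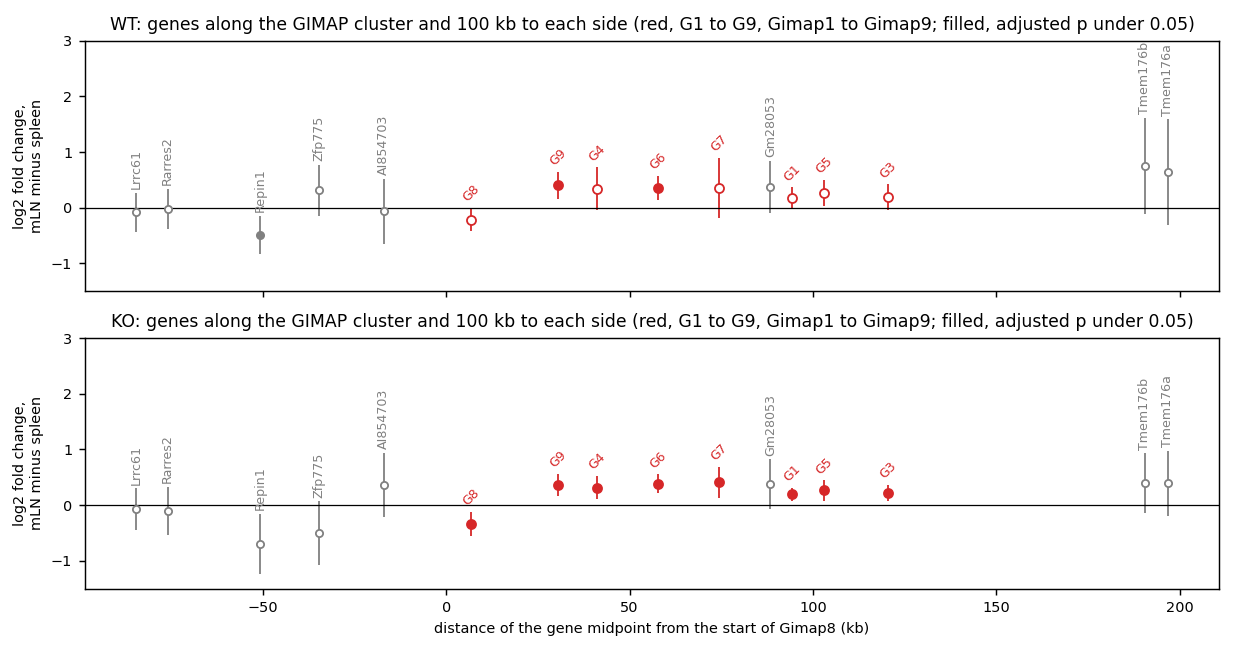
Log2 fold change of mLN minus spleen with its 95% interval for the protein-coding genes along the GIMAP cluster and 100 kb to each side, against the distance of the gene midpoint from the start of Gimap8 in kb. Red points are GIMAP genes and grey points other genes, filled where the adjusted p is under 0.05 in the fits without pairing. Gimap8 at the left edge of the cluster lies below 0 and the 7 other members above it, in WT (top) and KO (bottom).

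The genes around the cluster were described in the same way. Of 19 protein-coding genes within 300 kb of the outermost members, Gm28053 included, 12 were tested in WT and 11 in KO. In WT Gpnmb rose in mLN (log2 fold change 0.94, adjusted p = 0.0215), and Krba1 (−0.88, adjusted p = 0.00191), Repin1 (−0.49, adjusted p = 0.0465) and Sspo (−3.82, adjusted p = 0.0115, at a mean of 1.08 CPM in spleen) fell. In KO Krba1 alone passed (−0.92, adjusted p = 0.000143). The neighbours nearest to Gimap8 and Gimap3, AI854703 and Tmem176b, passed in neither genotype, and no neighbour passed for KO against WT. The median of the neighbours was 0.03 in WT and −0.07 in KO.

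Across samples, 7 of the members varied together. Over the 15 samples the log2 level of Gimap8 had a Pearson's r of −0.25 with the mean of the other 7 genes, while each of the others had between 0.62 (Gimap5) and 0.95 (Gimap3). After the mean of its group was taken from each sample, r was 0.76 for Gimap8 and between 0.52 (Gimap5) and 0.96 (Gimap4) for the others. Of the 7 pairs that hold Gimap8, 0 were positive over all samples and 7 within groups. These values are a description over samples that share groups, libraries and scaling.

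**Figure D5:**
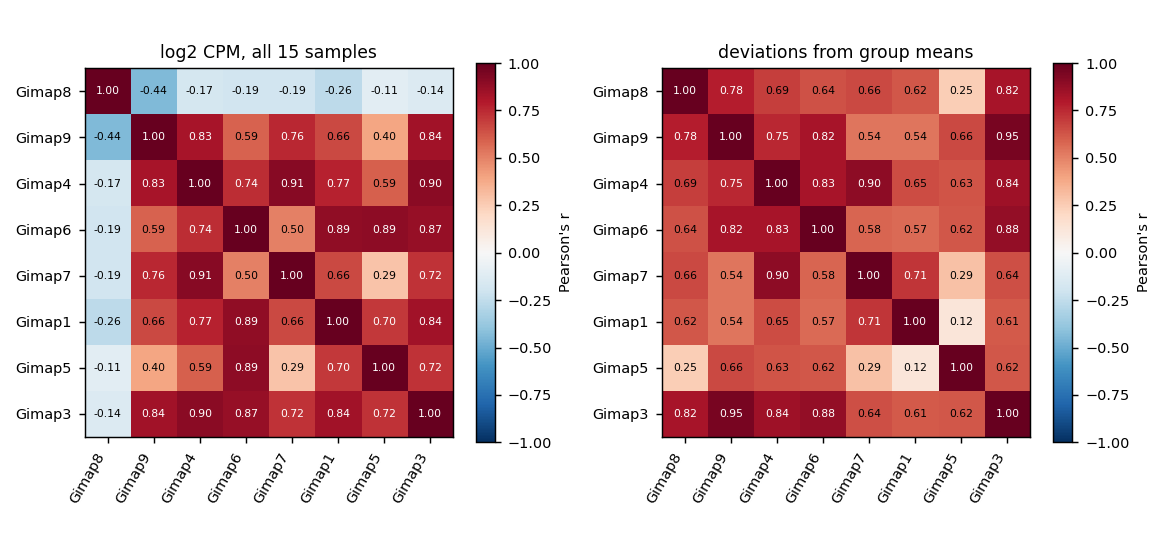
Pearson's r between the log2 CPM of each pair of GIMAP genes over 15 samples (left) and between their deviations from the group means (right), from blue (−1) to red (1). The row of Gimap8 is blue on the left (r from −0.44 to −0.11) and red on the right (0.25 to 0.82).

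By the same measure the genes most like the mean of the 8 members were named, out of 9636 genes with a mean log2 CPM of at least 3. Over all samples they were Tspan3 (r = 0.94), Gm47079 (0.92), Gpr18 (0.91), Calhm6 (0.90) and C430014B12Rik (0.90). By the deviations within groups they were Nkg7, a granule protein of cytotoxic cells (0.96), Irf2 (0.94), Cd200r4 (0.94), Tank (0.94) and Nab1 (0.94). The sets share no gene.

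Genes whose products have been connected with GIMAP proteins were listed beside them, 18 in all, from the BCL-2, ATG8 and GSK3 families and with Lamp1. None passed for KO against WT in either organ. Between the organs 2 rose and 2 fell in WT, and 4 rose and 5 fell in KO. The ATG8 genes Gabarap (log2 fold change 0.53, adjusted p = 0.00589 in WT and 0.39, adjusted p = 0.0102 in KO) and Map1lc3b (0.30, adjusted p = 0.0197 and 0.32, adjusted p = 0.00759) rose in mLN. The survival gene Bcl2 rose in KO (0.73, adjusted p = 0.00170), and its positive value in WT did not pass (0.47, SE 0.25, adjusted p = 0.215, edgeR). Bcl2l1, another survival gene (−0.76, adjusted p = 0.00139 in WT and −0.60, adjusted p = 0.00193 in KO), and the death effector Bak1 (−0.48, adjusted p = 0.0266 and −0.55, adjusted p = 0.00105) fell. The list median was 0.21 in WT and 0.18 in KO.

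A list of transcription factors, some of T cell quiescence and others of T cell development and early blood cells (among them Gata3, Runx3, Notch1 and Tal1), moved in both directions between the organs. Of 19 listed, 2 rose and 5 fell in WT (19 tested), and 5 rose and 5 fell in KO (18 tested), with none called for KO against WT. Klf2, a factor of quiescence and recirculation, rose by 1.35 on the log2 scale in WT (adjusted p = 0.0270) and by 0.71 in KO (adjusted p = 0.0337), and Lef1 rose by 0.70 (adjusted p = 0.0313) and 0.66 (adjusted p = 0.00256). Notch1 was lower in mLN at −1.11 (adjusted p = 0.00163) and −0.97 (adjusted p = 7.1e-05), as were Elf4 at −0.55 (adjusted p = 0.00554) and −0.69 (adjusted p = 0.000492) and Foxo3 at −0.95 and −0.76. Tal1, a factor of early blood and erythroid cells, fell in WT from a mean of 4.93 to 0.237 CPM (adjusted p = 0.0123). The erythroid markers overlapped between the WT organs, at 81.5 to 1676 CPM in spleen and 19.1 to 715 in mLN (medians 442 and 26.9). None of the 5 tested was called there. Their part in the fall of Tal1 was not tested.

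Of 14 genes of naive and recirculating T cells, 13 were tested. In mLN against spleen 8 rose and none fell in KO, and 1 rose and 1 fell in WT. Ccr7, the receptor that guides T cells into lymph nodes, rose in both (log2 fold change 1.77, adjusted p = 0.0234 in WT and 1.47, adjusted p = 0.00128 in KO), and Cd28 (0.40, adjusted p = 0.00330) and Actn1 (0.52, adjusted p = 0.00601) rose in KO. In KO against WT Il7r, the receptor chain for the survival cytokine IL-7, fell in both organs (−1.48, adjusted p = 0.0391 in spleen and −1.60, adjusted p = 0.00314 in mLN), and Actn1 rose in mLN (0.63, adjusted p = 0.0463).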

How the data were processed

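RNA-seq libraries were made by the authors from sorted CD4+ T cells with the NEBNext SingleCell/Low Input kit and sequenced as single-end reads. Per the labels and the study's methods, reads were aligned with STAR 2.6.1a to GRCm38 with GENCODE M23, and the authors deposited raw STAR counts per gene without normalization. RSEM is also named among the tools. The rows that name no gene (68.7% of reads, pooled over the 15 samples) were left out. No column belonged to another sample. Symbols and exon lengths came from GENCODE M21 (55240 of 55421 genes), and promoter sequences from RefSeq.

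Counts were tested with edgeR 4.0.16 (R 4.3.3) by the quasi-likelihood test after its filter on low counts and TMM scaling, separately for KO against WT in each organ and for mLN against spleen in each genotype, and as an interaction over 15 samples. The Benjamini-Hochberg adjustment ran over every tested gene, and an adjusted p under 0.05 was a call. Depth (9363940 to 11283439 reads on genes) covers counting error only. Correlations used log2 CPM with a prior count of 2. Alternatives were DESeq2 1.42.0, RLE scaling, other filters, the replicate number as a block, 1 fit of all samples, a fold limit and leaving out each replicate. Scripts were tested on simulated data.

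The pairing check compared deviations from the group means of same-numbered samples, as the numbers come from the sample titles. For WT mLN and spleen r lay between 0.24 and 0.29 in all 3 pairs, so these samples were taken as paired in the fit with the number as a block. The main fits, the main interaction and the fits that left out a replicate used no block. For KO it lay between 0.026 and 0.26.

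The members and gene lists were chosen with earlier results of these data known. Genes named are the 8 members, Prkaa1, the 5 most like the members by each measure, and called genes of each list (at most 4 per comparison).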

Additional observations from a re-analysis of the deposited data

Results flagged for a closer look

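In 24 groups of 4 samples, 3 held a sample that stood apart from the rest by Dixon's ratio of its gap to the range of the group, and chance gives such a gap in about 1 in 20 groups. Gimap8 in WT spleen replicate 3 stood at 360 CPM, above 291 to 298 in the other samples (ratio 0.899). Gimap4 in KO mLN replicate 2 stood at 1705 CPM, below 2107 to 2120 (ratio 0.969), and Gimap6 in the same library stood at 1057 CPM, below 1271 to 1306 (ratio 0.858). WT spleen replicate 3 was the highest of its group and KO mLN replicate 2 the lowest of its group for all 8 genes, so the flags share libraries.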

How the results depend on the processing

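GIMAP genes called in mLN against spleen were 2 in WT and 8 in KO (20.5% and 25.3% of all genes tested). With a fold limit of 1 on the log2 scale they were 0 in both (4.98% and 5.36%). With no filter on low counts they were 4 in WT and 5 in KO (10.8% and 11.7% of genes with a read). DESeq2 (9.5% and 11.4% of genes with a read) gave 2 and 8. So did RLE scaling (20.3% and 25.3% of all genes tested) and a minimum of 10 counts in every sample (22.4% and 28.1%). In 1 fit of all 15 samples they were 3 and 6 (22.6% and 24.5%). Leaving out a replicate gave 0 to 5 in WT (12.7% to 19.5% of all genes tested) and 2 to 7 in KO (18.1% to 25.2%). For KO against WT and for the interaction they were 0 under every alternative run. No GIMAP call changed direction. Levels were also divided by the T cell marker sum, an alternative chosen after seeing the data and not tested. Each called gene kept its sign, but the difference shrank by over 1.5 times for 6 of 8 called genes in KO (Gimap3 from 0.24 to 0.10, Gimap5 from 0.28 to 0.14) and for 1 of 2 in WT. Genes without overlap between the organs went from 4 to 2 in WT and from 3 to 1 in KO. For KO against WT the number of genes without overlap rose from 2 to 3 in spleen (Gimap1 added). In mLN it rose from 1 to 4 (Gimap8, Gimap1 and Gimap5 added), and all were lower in KO. Gimap4 in KO against WT mLN went from 0.014 to −0.030. The share of all genes without overlap was not computed after this scaling.

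With the replicate number as a block, GIMAP calls were 7 in WT and 8 in KO between the organs (30% and 26.8% of all genes tested) and 0 in the other comparisons. In KO 3 of 4 samples correlated best with their own number, and in KO against WT r lay between −0.21 and 0.15 in spleen and between −0.053 and 0.0034 in mLN, so those numbers were not taken as pairs. The block moved all genes called from 185 to 17 in spleen, from 92 to 1 in mLN and from 0 to 3 for the interaction. The following log2 values changed sign under the block, none of them called: Gimap4 in KO against WT mLN (−0.015) and, for the interaction, Gimap6 (−0.040), Gimap7 (−0.12), Gimap1 (−0.018), Gimap5 (−0.069) and Gimap3 (−0.050). With no filter the interaction of Gimap5 was −0.010.

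When a replicate was left out, uncalled values near 0 also changed sign. In KO against WT they ranged from −0.098 to 0.026 for Gimap3, from −0.075 to 0.19 for Gimap4 and from −0.0015 to 0.32 for Gimap7 in spleen, and from −0.061 to 0.037 for Gimap3 and from −0.070 to 0.13 for Gimap4 in mLN. For the interaction they ranged from −0.015 to 0.074 for Gimap1, −0.048 to 0.090 for Gimap3, −0.18 to 0.093 for Gimap4, −0.066 to 0.062 for Gimap5, −0.035 to 0.11 for Gimap6, −0.11 to 0.28 for Gimap7 and −0.11 to 0.058 for Gimap9.

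All genes called for KO against WT moved more than the GIMAP values. In spleen they were 64 with the fold limit, 799 with DESeq2, 1422 with no filter, 85 in 1 fit of all samples and 12 to 324 without a replicate. In mLN they were 47, 561, 913, 500 and 4 to 117. Between the organs they were 723 in WT and 763 in KO with the fold limit, and 1816 to 2780 and 2631 to 3669 without a replicate. The interaction gave 2 with DESeq2 and 112 with no filter. The cause was not tested. Depth sets the precision of Gimap5 most, which had 902 to 1557 counts per sample.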

Other observations

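Other GTPase families of immunity were described beside the GIMAP genes. Of 14 guanylate-binding, immunity-related and Mx GTPases, which act against intracellular microbes and are induced by interferons, the interferon-induced antiviral gene Mx1 rose in KO against WT in spleen (log2 fold change 0.96, adjusted p = 0.0475, edgeR) and in mLN (1.51, adjusted p = 0.0173), and Mx2 rose in mLN (2.86, adjusted p = 0.0326). None fell, and the list median was 0.28 in both organs. Between the organs Mx1 fell in mLN in WT (−0.81, adjusted p = 0.0463), and in KO Gbp3 rose (0.54, adjusted p = 0.0134) and Gbp4 fell (−0.30, adjusted p = 0.0453), with list medians of −0.16 in both genotypes.

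Genes of T cell activation and division had values in both directions between the organs. The median log2 fold change of the activation list was 0.16 in WT (8 of 14 positive) and −0.07 in KO (6 of 14 positive). That of the proliferation list was −0.08 in WT (3 of 12 positive) and 0.40 in KO (10 of 12 positive). Of 14 activation genes 5 rose in WT mLN, among them the costimulatory receptor Icos (1.21, adjusted p = 0.000797) and the inhibitory receptor Ctla4 (1.57, adjusted p = 0.00305), and in KO mLN 5 rose and Cd69, a retention receptor, fell (−0.96, adjusted p = 0.00140). In KO against WT spleen the IL-2 receptor gene Il2ra (−1.16, adjusted p = 0.0123) and Ctla4 (−0.78, adjusted p = 0.0391) fell. Of 12 proliferation genes, Birc5 rose in WT mLN (0.71, adjusted p = 0.0178), and Birc5 (0.89, adjusted p = 0.000754), Top2a (0.53, adjusted p = 0.0152), Aurkb (0.50, adjusted p = 0.0220) and Tyms (0.45, adjusted p = 0.00817) rose in KO mLN.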
